A study of Homo sapiens with 60 samples.

Results

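Apart from the helicase PIF1, the 52 genes described here encode proteins of the centromere, the kinetochore, the mitotic spindle and cell division. They were chosen by name and function from the genes counted in an RNA-seq study of TDP1-knockout HEK293A cells. Earlier results of these data were known when they were chosen. They are 52 of the 58395 gene IDs in the count table, and all 52 were among the 18985 genes that passed the low-count filter. By role, 14 belong to the centromere and its constitutive protein network, 18 to the outer kinetochore and spindle checkpoint, 5 to the chromosomal passenger complex and the shugoshins, 9 to the spindle and 5 to anaphase and cytokinesis, and the last is the DNA helicase PIF1.

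HEK293A is an adherent human embryonic kidney cell line. TDP1, tyrosyl-DNA phosphodiesterase 1, removes topoisomerase 1 that has become trapped on DNA, and topotecan is a drug that traps it there. Every library came from cells in which TDP1 had been targeted by CRISPR/Cas9 with guides against its constitutive coding exons, in 3 clones named C6, F7 and G6, each of which is 1 clonal line. Each clone was exposed for 5 to 5.5 h to the combination of 100 nM topotecan with 5 µM OL9-119, to 100 nM topotecan in 0.1% DMSO, to 5 µM OL9-119 in 0.1% DMSO, to 0.1% DMSO as the solvent control, or to nothing. OL9-119 is a compound developed against TDP1, and the label of the combination names no solvent. Each of the 15 groups of clone by treatment had 4 libraries that the labels call biological replicates, so each treatment had 12 libraries. Parental wild-type cells were not analysed here, so no value below is an effect of the knockout itself.

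At the centromere, nucleosomes that hold CENP-A in place of histone H3 recruit a constitutive protein network, and in mitosis this network carries the outer kinetochore, whose KNL1, MIS12 and NDC80 complexes bind spindle microtubules. The chromosomal passenger complex corrects wrong attachments, the spindle checkpoint delays anaphase until attachment is complete, and CDC20, UBE2C and securin (PTTG1) act in the step that releases the sister chromatids. Transcripts of many of these genes rise towards mitosis, through promoters that hold a cell cycle homology region (CHR), the element bound by the MuvB core of the DREAM and B-MYB complexes, and CCAAT boxes bound by NF-Y. CENPB, by contrast, binds a short motif in alpha-satellite DNA at all stages of the cycle.

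The promoters of 7 of the genes are shown because each gene had the lowest topotecan change of its role, with CENPB added as the DNA-binding centromere protein. Each is the window that begins 250 bases before and ends 50 bases after the first RefSeq transcription start on GRCh38.p14, written 5′ to 3′ on the strand of the gene. Capitals mark matches to the CHR (TTTGAA or TTCGAA) and to the CCAAT box (CCAAT), each searched on both strands. CENPA (chr2:26785806-26786105, plus strand) held a CHR match at position -18 from the start and CCAAT boxes at -205 and -130. DLGAP5 (chr14:55191536-55191835, minus strand) held CHR matches at -138, -109 and 3. ECT2 (chr3:172750476-172750775, plus strand) held them at -115 and 34, and PIF1 (chr15:64825598-64825897, minus strand) at -20. SGO2 (chr2:200525892-200526191, plus strand) held a CCAAT box at 0 and no CHR match. Neither motif was found in the windows of CENPE (chr4:103198294-103198593, minus strand) and CENPB (chr20:3786691-3786990, minus strand).
CENPA: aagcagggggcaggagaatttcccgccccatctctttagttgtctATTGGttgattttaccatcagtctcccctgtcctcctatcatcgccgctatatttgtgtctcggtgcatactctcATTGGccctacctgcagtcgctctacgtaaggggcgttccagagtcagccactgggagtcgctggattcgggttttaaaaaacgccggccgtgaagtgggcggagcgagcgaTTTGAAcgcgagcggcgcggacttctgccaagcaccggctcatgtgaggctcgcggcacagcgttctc
CENPE: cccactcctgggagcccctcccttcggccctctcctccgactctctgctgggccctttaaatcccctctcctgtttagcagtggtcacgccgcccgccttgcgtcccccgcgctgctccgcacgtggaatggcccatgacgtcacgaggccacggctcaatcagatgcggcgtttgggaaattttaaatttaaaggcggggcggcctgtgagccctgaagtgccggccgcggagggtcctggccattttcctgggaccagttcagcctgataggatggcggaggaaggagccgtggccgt
SGO2: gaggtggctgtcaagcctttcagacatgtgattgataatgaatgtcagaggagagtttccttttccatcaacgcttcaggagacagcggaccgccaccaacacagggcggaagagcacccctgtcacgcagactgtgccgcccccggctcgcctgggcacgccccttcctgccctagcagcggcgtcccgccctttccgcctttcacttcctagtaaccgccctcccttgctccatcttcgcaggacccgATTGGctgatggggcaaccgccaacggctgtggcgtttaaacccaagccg
DLGAP5: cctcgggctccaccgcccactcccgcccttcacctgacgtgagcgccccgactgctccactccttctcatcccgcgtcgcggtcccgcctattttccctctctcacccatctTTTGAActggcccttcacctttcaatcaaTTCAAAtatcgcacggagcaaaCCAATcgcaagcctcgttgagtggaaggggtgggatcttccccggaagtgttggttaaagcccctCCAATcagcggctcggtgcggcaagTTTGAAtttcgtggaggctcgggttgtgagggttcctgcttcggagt
ECT2: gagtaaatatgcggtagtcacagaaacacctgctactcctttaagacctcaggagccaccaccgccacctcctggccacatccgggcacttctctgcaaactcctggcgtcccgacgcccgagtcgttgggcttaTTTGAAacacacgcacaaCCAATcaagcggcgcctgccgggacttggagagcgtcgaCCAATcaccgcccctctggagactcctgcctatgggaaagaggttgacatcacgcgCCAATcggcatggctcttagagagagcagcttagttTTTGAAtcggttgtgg
PIF1: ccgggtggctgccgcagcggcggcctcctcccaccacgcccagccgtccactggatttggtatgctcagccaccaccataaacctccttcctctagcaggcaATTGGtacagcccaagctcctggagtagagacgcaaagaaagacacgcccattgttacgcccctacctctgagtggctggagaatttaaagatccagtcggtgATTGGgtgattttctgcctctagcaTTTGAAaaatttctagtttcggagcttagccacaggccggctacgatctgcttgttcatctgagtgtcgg
CENPB: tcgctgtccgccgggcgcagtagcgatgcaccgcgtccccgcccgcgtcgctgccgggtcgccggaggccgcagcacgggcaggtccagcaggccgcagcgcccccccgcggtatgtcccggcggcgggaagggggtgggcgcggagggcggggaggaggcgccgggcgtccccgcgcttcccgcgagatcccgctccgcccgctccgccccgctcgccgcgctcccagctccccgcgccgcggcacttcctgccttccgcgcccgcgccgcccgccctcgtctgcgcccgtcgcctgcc

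The 60 libraries held 4.62 to 20.9 M counts each (median 11.4 M, where M stands for 1e6). At a common depth of 4.5 M counts, 14 of them detected 17461 to 19312 genes and the other 46 detected 20135 to 23664. Of these 14 low-detection libraries, 10 belonged to clone C6, 4 to G6 and 0 to F7. By treatment, 4 were combination libraries, 2 topotecan, 3 OL9-119, 3 DMSO and 2 untreated. TDP1 itself was counted at 17.8 to 42.2 CPM (counts scaled to 1e6 per library) over the 60 libraries, and a count over the whole gene does not test a small frameshift deletion. The summed level of 6 markers of HEK293 cells (KRT8, KRT18, VIM, NEFL, NEFM and PAX2) spanned 1367 to 1962 CPM in combination, 1481 to 2023 CPM in topotecan, 1366 to 1994 CPM in OL9-119, 1393 to 1951 CPM in DMSO and 1377 to 2312 CPM in untreated libraries. Over all libraries, summed blood markers reached at most 2.11 CPM, hepatocyte markers 1.29 CPM, endothelial markers 9.57 CPM and fibroblast markers 45.2 CPM. Topotecan changed 0 of the marker genes tested in edgeR, and 0 had an unadjusted p under 0.05.

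In DMSO, the levels of the 52 genes per kilobase of exon spanned a wide range. The highest was KPNA2, the importin that carries spindle factors such as TPX2, at 147, 162 and 186 CPM per kb (lowest, median and highest of the 12 DMSO libraries). The spindle assembly factor TPX2 followed at 93.7, 134.9 and 179.7 CPM per kb. The microtubule-binding protein NUSAP1 stood at 82.3, 134 and 183 CPM per kb. These ranges of TPX2 and NUSAP1 overlapped almost entirely, and that of KPNA2 lay above their medians. CKAP5, a microtubule polymerase, had 79.4, 130.3 and 143 CPM per kb and so overlapped them too. CENPB stood at 15.7, 33.7 and 60.3 CPM per kb, and CENPA, the centromeric histone, at 10.9, 16.6 and 22.8 CPM per kb. CENPP, PIF1 and PRC1 were at the lower end, and PRC1 had no more than 1.04 CPM per kb in any DMSO library. PRC1 shares 3181 exon bases on the same strand with AC068831.7, so the assignment of shared reads may bear on its level.

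After topotecan, 28 of the 52 genes fell, 1 rose and 23 did not pass the test (edgeR quasi-likelihood test, adjusted p under 0.05). Among all genes tested 9.35% were lower and 5.99% higher, 15.3% in either direction. The median log2 change of the 52 genes was -0.28, against 0.02 for all genes tested, and 40 of the 52 were below 0. By role, 3 of 14 centromere genes fell, 7 of 18 outer kinetochore and checkpoint genes, 4 of 5 passenger and shugoshin genes, 8 of 9 spindle genes, 5 of 5 anaphase and cytokinesis genes, and PIF1. The median log2 change was -0.05 for centromere, -0.12 for outer kinetochore, -0.31 for passenger, -0.51 for spindle and -0.60 for anaphase genes. In 12 genes every topotecan library lay below every DMSO library of its clone in all 3 clones, which held for 2.20% of all genes tested. In bulk RNA, fewer cells in the mitotic part of the cycle and less RNA of these genes per cell cannot be told apart.

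**Figure D1:**
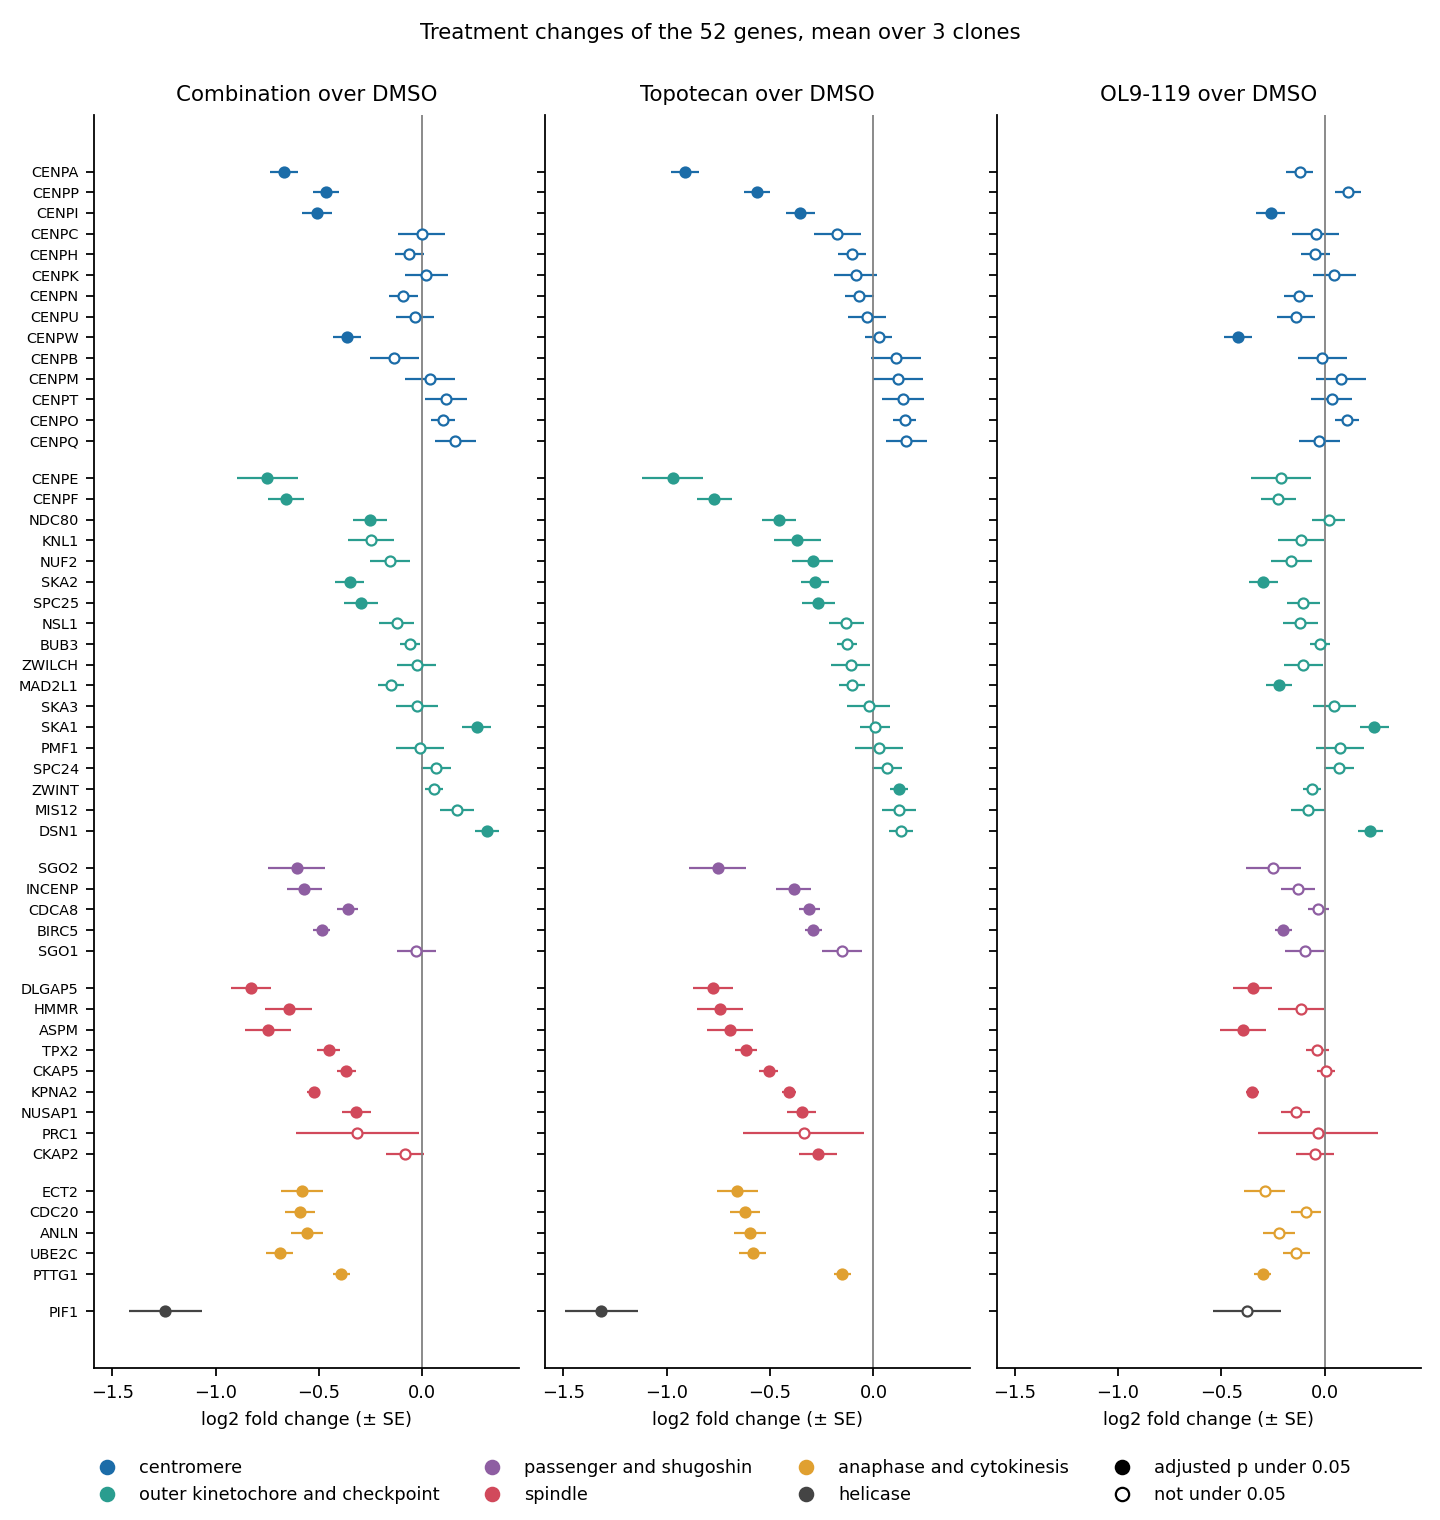
Log2 fold change over DMSO (± SE, edgeR) of each of the 52 genes after the combination, topotecan and OL9-119, mean over the 3 clones, with genes grouped by role and filled points for adjusted p under 0.05. After topotecan the spindle genes (median -0.51) and the anaphase genes (median -0.60) lie to the left of 0, while 11 of 14 centromere genes carry open points.

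Within the centromere class, CENPA changed most. CENPA (ENSG00000115163, chr2:26764289-26801067 on hg38) had 8.39, 18.3 and 33.8 CPM in topotecan (lowest, median and highest of 12), against 21.5, 32.9 and 45.2 CPM in DMSO. The lowest topotecan values were those of C6 and the highest those of F7, and the F7 topotecan libraries overlapped the DMSO range. The log2 change was -0.91 ± 0.07 (SE), which left 53.1% of the DMSO level (edgeR adjusted p = 1.59e-16). Here and below, SE and p of changes averaged over the clones rest on the spread of libraries within groups, not between clones. CENPP and CENPI, members of the constitutive network, also fell. CENPP had 21.4, 25.4 and 31.9 CPM in topotecan and 34.2, 35.6 and 47.6 CPM in DMSO, and these ranges did not overlap. Its log2 change was -0.56 ± 0.06 (edgeR adjusted p = 4.76e-10), and CENPI changed by -0.35 (adjusted p = 0.00014 in the same edgeR test). CENPP shares 3719 exon bases with IPPK on the other strand, and whether the counting used strand is not given in the sources used here.

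The other 11 centromere genes did not pass the test after topotecan, among them CENPC, CENPH, CENPK, CENPM, CENPN, CENPO, CENPT and CENPU of the constitutive network. CENPB (ENSG00000125817, chr20:3783851-3786690) had 56.6 to 155 CPM in topotecan and 44.5 to 171 CPM in DMSO, with ranges that overlapped almost throughout. Its log2 difference was 0.11 ± 0.12 (edgeR adjusted p = 0.634). The highest value of the class belonged to CENPQ, with 33.2, 41.1 and 78.9 CPM in topotecan and 27.4, 38.4 and 68.6 CPM in DMSO (log2 difference 0.16, edgeR adjusted p = 0.335). CENPW, a histone-fold protein that partners CENPT, had medians of 44.1 CPM in topotecan and 44.2 CPM in DMSO.

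In the outer kinetochore, the 2 large proteins of the corona led. CENPE is the kinesin that moves chromosomes to the spindle equator, and CENPF binds microtubules and dynein regulators. CENPE (ENSG00000138778, chr4:103105806-103198409) had 57.7, 107 and 130.7 CPM in topotecan, against 131.4, 193 and 286 CPM in DMSO. The highest topotecan library thus lay just under the lowest DMSO library. Its log2 change was -0.97 ± 0.15 (edgeR adjusted p = 7.03e-07), and CENPF changed by -0.77 (edgeR adjusted p = 2e-10). NDC80, which makes the main microtubule contact, fell by 0.46, its partner NUF2 by 0.29 and SPC25 of the same complex by 0.27 on the log2 scale, while SPC24 did not pass the test. KNL1, the scaffold for checkpoint proteins, fell by 0.37 and SKA2 by 0.28. The MIS12 complex (MIS12, DSN1, NSL1 and PMF1), the checkpoint proteins MAD2L1 and BUB3, ZWILCH and SKA3 did not pass. DSN1 had 46.7, 71.0 and 101.1 CPM in topotecan and 44, 67.9 and 93.6 CPM in DMSO, which overlapped. ZWINT, a KNL1 partner, rose by 0.12 (edgeR adjusted p = 0.0499).

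Of the passenger and shugoshin genes, SGO2, which protects centromeric cohesion, had 23.3, 45.8 and 51.6 CPM in topotecan, against 46.2, 68.8 and 102.6 CPM in DMSO. The treatments overlapped between 46.2 and 51.6 CPM, with the lowest topotecan values in C6. The log2 change was -0.75 ± 0.14 (edgeR adjusted p = 2.51e-05). INCENP, the scaffold of the passenger complex, fell by 0.39, borealin (CDCA8) by 0.31 and survivin (BIRC5) by 0.29 on the log2 scale. SGO1, the other shugoshin, had 25.3, 32.1 and 42.1 CPM in topotecan and 28.3, 31.9 and 53.5 CPM in DMSO, and did not pass (log2 difference -0.15, edgeR adjusted p = 0.335).

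Among the spindle genes, DLGAP5, a stabiliser of kinetochore fibres, changed most. DLGAP5 (ENSG00000126787, chr14:55148112-55191678) had 74.8, 88.0 and 115 CPM in topotecan and 100.2, 157 and 228 CPM in DMSO. Of the DMSO values, those of F7 were the lowest, and within each clone the treatments did not overlap. The log2 change was -0.78 ± 0.10 (edgeR adjusted p = 4.49e-09). HMMR changed by -0.74, ASPM, a spindle pole protein, by -0.70, TPX2 by -0.62, CKAP5 by -0.51 and NUSAP1 by -0.35. KPNA2 (ENSG00000182481, chr17:68035519-68046842) had 316, 352 and 531 CPM in topotecan and 460.3, 509 and 585 CPM in DMSO, and the overlap came from F7. Its log2 change was -0.41 ± 0.03 (edgeR adjusted p = 2.79e-15). CKAP2 had 197, 238 and 373 CPM in topotecan and 194.5, 299.7 and 440.2 CPM in DMSO, with a log2 change of -0.27 (edgeR adjusted p = 0.0348).

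All 5 anaphase and cytokinesis genes fell after topotecan. ECT2, the exchange factor that activates RhoA at the cleavage site, had 115, 135 and 172 CPM in topotecan, against 159, 207 and 309.8 CPM in DMSO. The ranges touched only between 159 and 172 CPM, and the log2 change was -0.66 (edgeR adjusted p = 8.48e-07). CDC20, the activator of the anaphase-promoting complex, had 49.3, 94.4 and 164 CPM in topotecan and 95.5, 155 and 194 CPM in DMSO (log2 change -0.62, edgeR adjusted p = 9.74e-10). Anillin (ANLN) changed by -0.60 and UBE2C, the ubiquitin-conjugating enzyme of that complex, by -0.58. PTTG1 changed least, with 116, 144 and 168 CPM in topotecan and 132, 159.8 and 179 CPM in DMSO (log2 change -0.15 ± 0.04, edgeR adjusted p = 0.00625).

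PIF1, a 5′ to 3′ DNA helicase that unwinds G-quadruplexes, had the lowest log2 change of the 52 genes, -1.32 ± 0.18 (edgeR adjusted p = 4.12e-08). PIF1 (ENSG00000140451, chr15:64815632-64825668) had 0.157, 4.12 and 11.7 CPM in topotecan, against 4.07, 10.04 and 12.7 CPM in DMSO. The lowest 4 topotecan values were all from C6, whose libraries held 1, 28, 31 and 2 counts of PIF1 in topotecan and 24, 21 and 90 counts in DMSO replicates 1, 2 and 4, with more than 90 in replicate 3. The C6 topotecan libraries with 1 and 2 counts are both low-detection libraries, as are the C6 DMSO libraries with 24 and 21 counts. Without clone C6 the log2 change of PIF1 was -0.76 (edgeR adjusted p = 0.000122), and without the low-detection libraries it was -1.22.

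Of the 29 topotecan calls, 23 held under every alternative setting tried, and the 6 that did not were KNL1, NUF2, SPC25, CKAP2, PTTG1 and ZWINT. CKAP2 and NUF2 each lost the call when replicate 1 or 2 of C6, any 1 replicate of F7, replicate 2 or 3 of G6 or the whole of C6 was left out, with log2 changes as near to 0 as -0.19 for CKAP2 and -0.23 for NUF2 (edgeR adjusted p up to 0.25 and 0.129). KNL1 lost it in 6 such settings (nearest -0.30), SPC25 without replicate 1 of F7, replicate 3 of G6 or the whole of C6 (nearest -0.19), and PTTG1 without C6 (-0.10) or without the count filter. ZWINT lost it in 11 settings, with a log2 change as low as 0.11. The call of CDCA8 was kept, but its log2 change was -0.20 without C6.

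**Figure D2:**
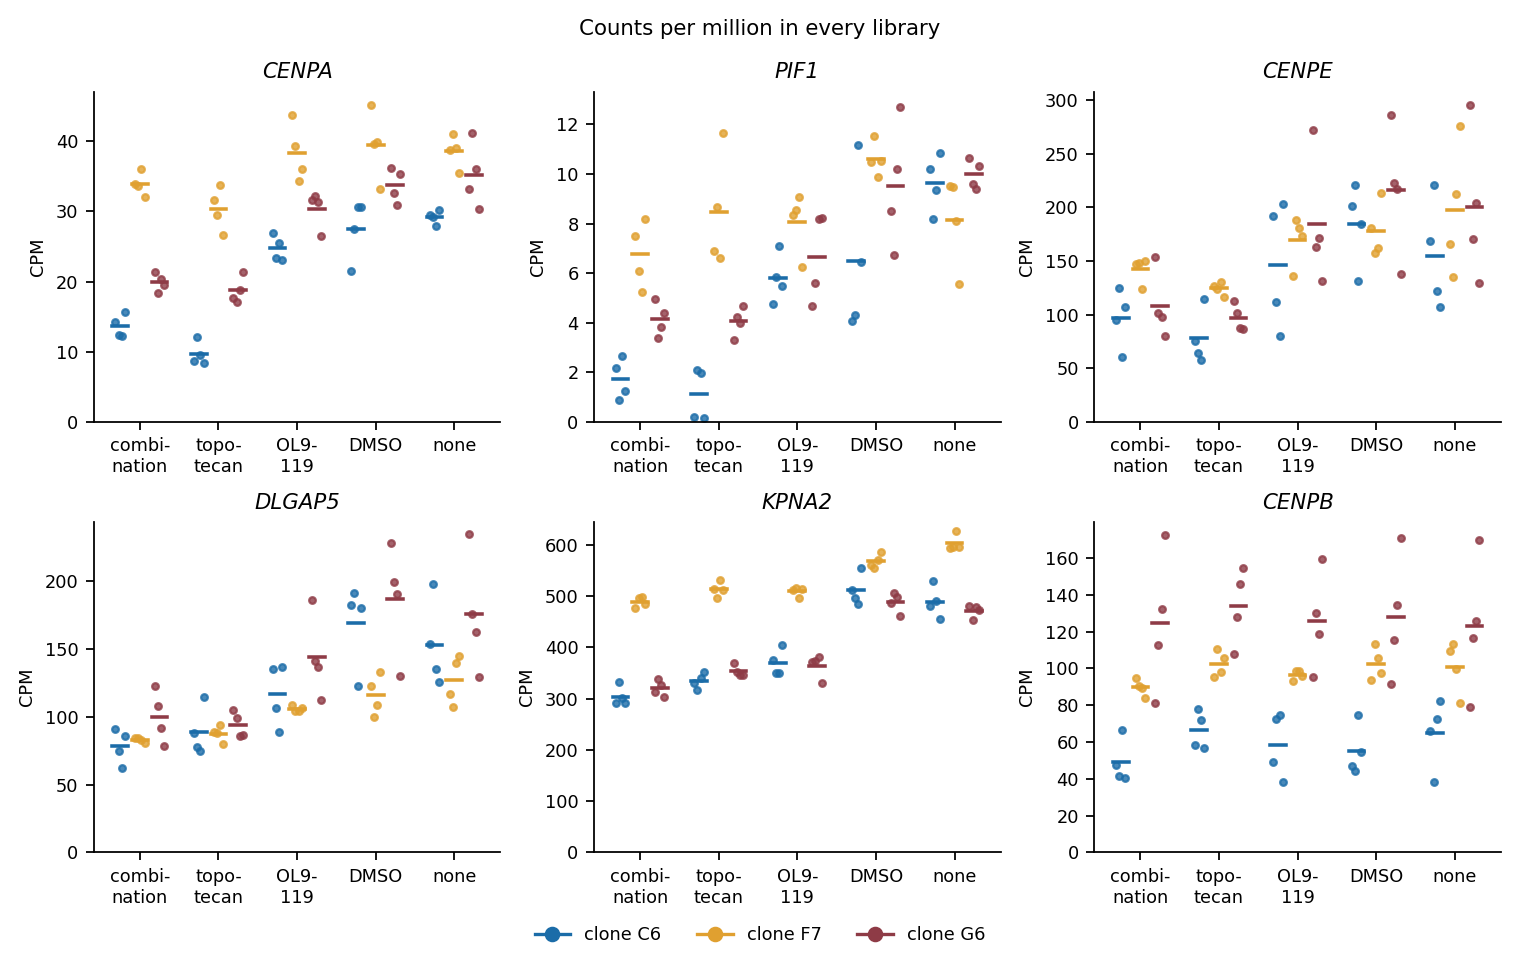
CPM of CENPA, PIF1, CENPE, DLGAP5, KPNA2 and CENPB in all 60 libraries, by treatment, with 1 point per library, colours for the clones and bars for the mean of 4 libraries. CENPA is lowest in C6 topotecan (mean 9.69 CPM, against 27.5 CPM in C6 DMSO), and CENPB in DMSO averages 55.1 CPM in C6 and 128.1 CPM in G6.

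The topotecan change depended on the clone for CENPA and KPNA2, and the other 50 genes did not pass the test of clone dependence. Of those 50, PIF1, CDC20, CKAP5, TPX2, CDCA8, HMMR, DLGAP5, ANLN and ECT2 had an unadjusted p under 0.05 in this edgeR test. A gene that did not pass is thus not shown to respond alike in the clones. Tested within each clone, 22 of the 52 genes fell in C6 (3.13% of all genes tested were lower there), 4 in F7 (1.70%) and 22 in G6 (6.40%). The 4 in F7 were CENPP, TPX2, CKAP5 and UBE2C, and this count was 0 without replicate 2 of F7, 1 without any other replicate of F7 and 8 with clone-by-replicate blocks. The mean log2 CPM of the 52 genes differed between topotecan and DMSO by -0.42 in C6, -0.13 in F7 and -0.34 in G6. In the test of clone dependence, CENPA (edgeR adjusted p = 0.000115) and KPNA2 (edgeR adjusted p = 0.00114) passed, against 0.137% of all genes tested. CENPA averaged 9.69 ± 1.69 CPM in topotecan and 27.5 ± 4.25 CPM in DMSO in C6 (SD, n = 4 each here and below). In F7 it averaged 30.4 ± 3.06 CPM in topotecan and 39.5 ± 4.91 CPM in DMSO, and in G6 18.8 ± 1.91 CPM in topotecan and 33.8 ± 2.44 CPM in DMSO. F7 thus kept most of its CENPA transcript, and C6 the least.

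KPNA2 averaged 334.5 ± 15 CPM in topotecan and 511.9 ± 30.1 CPM in DMSO in C6. In F7 the means were 513 ± 14.6 CPM in topotecan and 567.5 ± 13.4 CPM in DMSO, and in G6 353 ± 10.9 CPM in topotecan and 488 ± 20.1 CPM in DMSO. The clones therefore took the same order for KPNA2 as for CENPA. PIF1 did not pass the test of clone dependence (edgeR adjusted p = 0.0549). C6 holds 10 of the 14 low-detection libraries and F7 none, and what part this has in these differences was not tested beyond leaving those libraries out. Without them, 10 of the 52 genes fell in F7 in place of 4, and 4 in place of 2 passed the test of clone dependence. F7 lost no library in this setting, so its count moved through the spread and normalization that the fit shares between clones. The counts of called genes by clone therefore do not rest on the libraries of that clone alone.

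**Figure D3:**
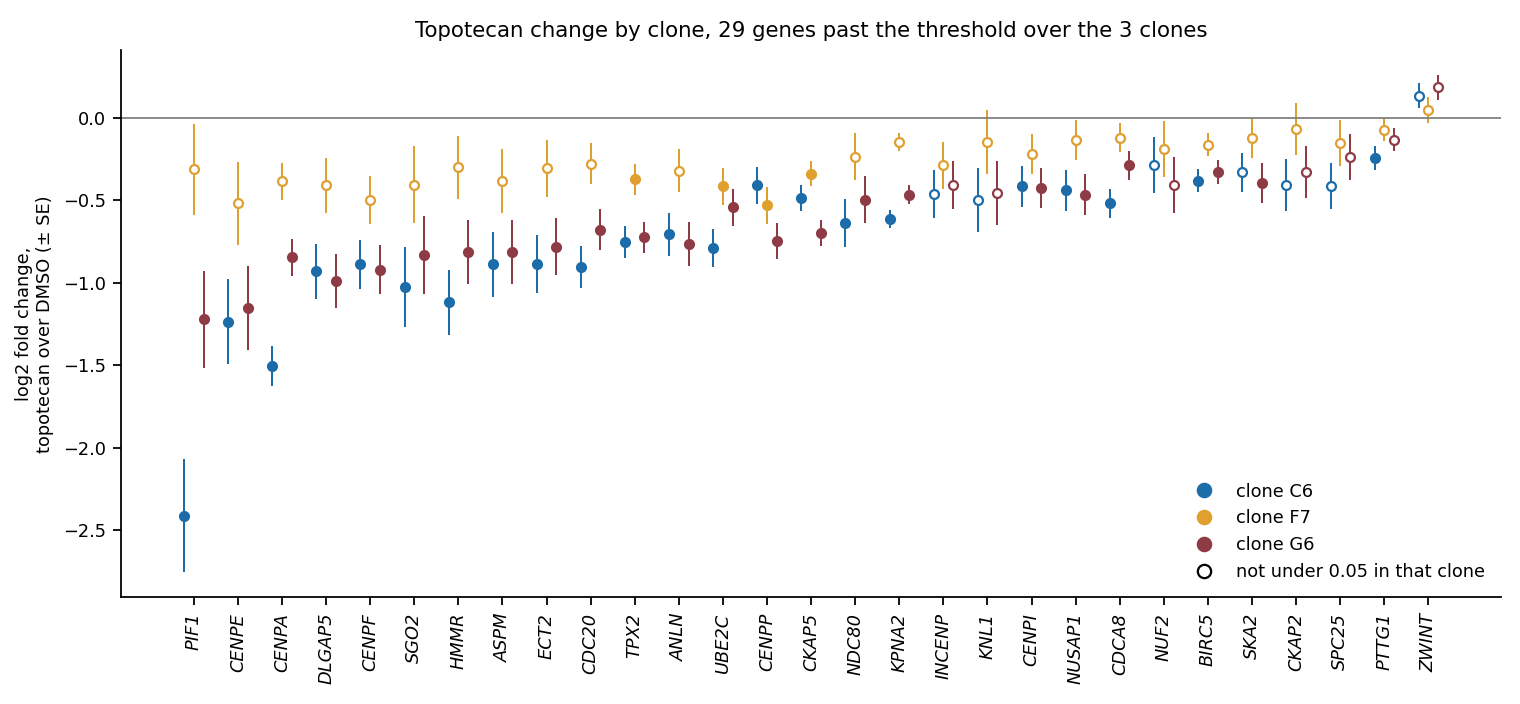
Log2 fold change of topotecan over DMSO (± SE, edgeR) within each clone for the 29 genes called over the 3 clones, ordered by the mean change, with filled points for adjusted p under 0.05 in that clone. Points of F7 lie nearest to 0 for CENPA, and only 4 of the F7 points are filled, against 22 each in C6 and G6. The fit behind these calls shares its estimate of the spread between the clones.

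A RefSeq promoter window was available for 45 of the 52 genes; none was matched for CENPH, CENPM, KNL1, BUB3, BIRC5, TPX2 and UBE2C. A CHR match stood in 27 of the 45 windows (60%), against 11.4% of the 11772 windows of genes tested and 16.6% of all 27305 windows in the table. A CCAAT box stood in 31 (68.9%), against 36.6% and 35.7% of the same sets. Both motifs stood in 21 (46.7%), against 4.79% and 6.58%. Of the 37 CHR matches, 27 lay within 50 bases of the start. E2F matches (any of the strings TTCCCGC or TTGGCGC, and likewise TTCGCGC or else TTGCCGC, on either strand) were found in 16 windows (35.6%), against 20.1% and 13.1%. A match here is a string of letters and not a bound site.

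By role, a CHR match was found for 5 of 12 centromere genes with a window, 8 of 16 outer kinetochore genes, 3 of 4 passenger genes, 7 of 8 spindle genes, 3 of 4 anaphase genes and PIF1. Of the 27 genes with a match, 17 fell after topotecan and 1 rose, with a median log2 change of -0.35. Of the 18 without, 7 fell, with a median of -0.10. Among all genes tested 9.35% were lower. Because the match is unevenly spread over the roles, these counts do not separate motif from role. A link between motif and change was not tested, either over all genes or within a role. The promoters printed above show both cases: CENPA, DLGAP5, ECT2 and PIF1 hold a match and fell, CENPE and SGO2 hold none and fell, and CENPB holds none and did not pass the test.

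**Figure D4:**
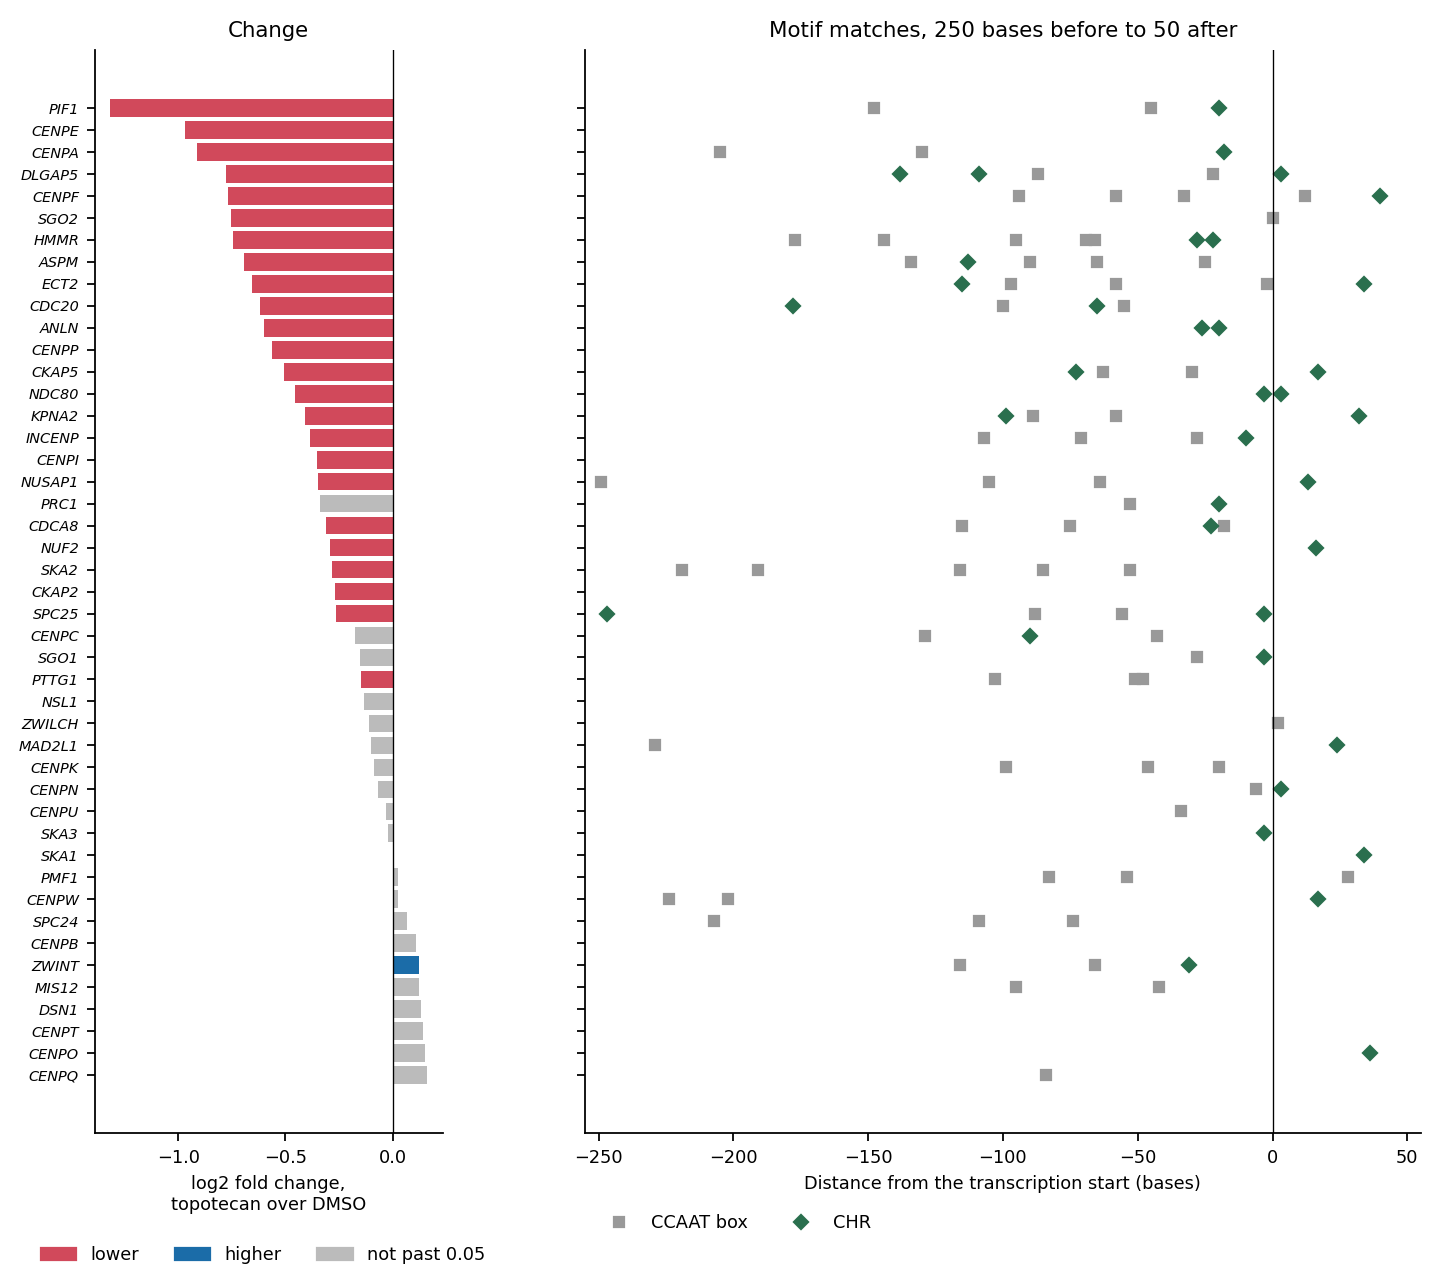
Left, log2 fold change of topotecan over DMSO for the 45 genes with a promoter window, coloured by call; right, distance of each CHR and CCAAT match from the transcription start in bases. CHR matches gather near the start, with 27 of 37 within 50 bases, and are more frequent in the upper rows, among genes with a lower change. A link between match and change was not tested.

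The change after topotecan also varied with gene length, and the 52 genes had lower medians than other genes of like length. In genes of 30 to 100 kb, the 22 genes of the list had a median log2 change of -0.41 and 17 of them fell, while the 4752 other tested genes of that length had a median of -0.01 and 7.49% of them were called lower. In genes of 10 to 30 kb, 6 of 20 fell (median -0.10), against 1.63% of 4051 other genes (median 0.09). Under 10 kb, 3 of 8 fell (median 0.07), against 1.02% of 2849 other genes (median 0.12). CKAP5 and CENPP are the only longer ones, in length classes where 31.6% and 56.8% of other genes were lower. Across the 52 genes, the Spearman correlation of the topotecan change with genomic span was -0.43, given as a description because these genes share the same libraries.

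OL9-119 alone changed fewer of these genes. After OL9-119, 9 genes fell, 2 rose and 41 did not pass the test, against 5.00% lower, 4.47% higher and 9.47% either way among all genes tested. The median log2 change was -0.10, against 0.01 for all genes. The lowest was CENPW, which had 24.0, 33.4 and 47.1 CPM in OL9-119 and 39.4, 44.2 and 58.4 CPM in DMSO. The ranges overlapped between clones, with C6 highest under both treatments, and the log2 change was -0.42 ± 0.07 (edgeR adjusted p = 3.71e-06). KPNA2 had 330, 378 and 515 CPM in OL9-119 and 460.3, 509 and 585 CPM in DMSO (log2 change -0.35 ± 0.03, edgeR adjusted p = 1.31e-12). PTTG1 had 99.8, 132 and 152 CPM in OL9-119 and 132, 159.8 and 179 CPM in DMSO (log2 change -0.30, edgeR adjusted p = 1.97e-07). KPNA2 and PTTG1 were the only members whose OL9-119 libraries lay below the DMSO libraries in all 3 clones, which held for 0.458% of all genes.

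The other genes that fell after OL9-119 were ASPM (log2 change -0.40), DLGAP5 (-0.35), SKA2 (-0.30), CENPI (-0.26), MAD2L1 (-0.22) and BIRC5 (-0.20). SKA1, a subunit of the microtubule-coupling Ska complex, had 31.6, 43 and 58.7 CPM in OL9-119 and 26.8, 38.5 and 51.2 CPM in DMSO (log2 change 0.24, edgeR adjusted p = 0.0189). DSN1 had 48.1, 80.3 and 93.0 CPM in OL9-119 and 44, 67.9 and 93.6 CPM in DMSO (log2 change 0.22, edgeR adjusted p = 0.00893). For both, the ranges overlapped. CENPA (log2 difference -0.12), CENPE, CENPP, CDC20, SGO2 and PIF1 did not pass. PIF1 had a log2 difference of -0.38 ± 0.16 (edgeR adjusted p = 0.159). Of the 11 OL9-119 calls, 5 held under every alternative, and ASPM, MAD2L1, CENPI, DLGAP5, SKA1 and DSN1 did not. Without the low-detection libraries the count of lower genes was 17 and SKA1 did not pass (log2 difference 0.13, edgeR adjusted p = 0.216).

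Within clones, OL9-119 called KPNA2 and PTTG1 lower in C6 (1.93% of all genes lower) and CENPW, KPNA2 and PTTG1 in G6 (0.953%). In F7 it called 0 of the 52 in edgeR, where 1.05% of all genes were called in either direction, 6 had an unadjusted p under 0.05 and DESeq2 called 2. These counts depend on the setting. Without the low-detection libraries 8 were lower in C6, 2 lower and 1 higher in F7 and 4 lower in G6, and a fit with clone-by-replicate blocks called 10 lower in C6, 1 in F7 and 9 in G6. Without clone C6, 6 were called in G6. The test of clone dependence called 0 of the 52 for OL9-119 in edgeR (0.0263% of all genes), with 1 at an unadjusted p under 0.05.

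With both compounds together, 26 of the 52 genes fell, 2 rose and 24 did not pass, against 11.7% lower, 9.53% higher and 21.2% either way among all genes. The median log2 change was -0.28, against -0.01 for all genes. By role, 4 of 14 centromere genes fell, 5 of 18 outer kinetochore genes, 4 of 5 passenger genes, 7 of 9 spindle genes, 5 of 5 anaphase genes and PIF1. In 14 genes the combination libraries lay below the DMSO libraries in all 3 clones, which held for 2.16% of all genes. CENPA had 12.3, 19.96 and 36 CPM in the combination and 21.5, 32.9 and 45.2 CPM in DMSO (log2 change -0.67 ± 0.07, edgeR adjusted p = 5.84e-12). C6 again gave the lowest values and F7 the highest, and the ranges overlapped through F7. CENPE had 60.6, 115 and 153 CPM in the combination and 131.4, 193 and 286 CPM in DMSO (log2 change -0.75, edgeR adjusted p = 6.77e-05).

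PIF1 had 0.881, 4.11 and 8.20 CPM in the combination and 4.07, 10.04 and 12.7 CPM in DMSO, with a log2 change of -1.24 (edgeR adjusted p = 1.52e-07). DLGAP5 changed by -0.83, ASPM by -0.75, UBE2C by -0.69, KPNA2 by -0.53, BIRC5 by -0.49, PTTG1 by -0.39 and CENPW by -0.36. DSN1 had 41.6, 85.4 and 112.5 CPM in the combination and 44, 67.9 and 93.6 CPM in DMSO (log2 change 0.31 ± 0.06, edgeR adjusted p = 4.6e-05). SKA1 had 35.2, 44.2 and 61.8 CPM in the combination and 26.8, 38.5 and 51.2 CPM in DMSO (log2 change 0.26, edgeR adjusted p = 0.00411). Both ranges overlapped across clones. Of the 28 combination calls, 27 held under every alternative. The exception was NDC80 (log2 change -0.25), which lost its call in 6 of them (edgeR adjusted p up to 0.102). Within clones the combination lowered 23 genes in C6 (5.02% of all genes lower), 5 in F7 (2.43%) and 23 in G6 (6.32%), where DSN1 also rose (3.17% higher). The count in F7 was 3 without replicate 1, 3 or 4 of F7, 8 without replicate 1 or 4 of G6, 12 with clone-by-replicate blocks (1 of them higher) and 19 without the low-detection libraries (3 of them higher). Its change depended on the clone for CENPA (edgeR adjusted p = 0.0265) and KPNA2 (edgeR adjusted p = 4.87e-05), against 0.169% of all genes. In the same test CDC20, TPX2, CENPF, HMMR, CKAP5, DLGAP5, PIF1, UBE2C and CENPP had an unadjusted p under 0.05 without passing.

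The combination was also compared with each compound. These comparisons share libraries with those above. Against topotecan, 4 genes were lower in the combination, namely CENPW (log2 difference -0.39), PTTG1 (-0.24), BIRC5 (-0.20) and KPNA2 (-0.12), and 3 were higher, namely SKA1 (0.26), CENPA (0.24) and CKAP5 (0.14). Among all genes 3.45% were lower and 3.33% higher. CENPW had 24.6, 36.2 and 43.2 CPM in the combination and 38.8, 44.1 and 61.4 CPM in topotecan (edgeR adjusted p = 3e-05), and within each clone the ranges did not overlap. The CENPA difference (edgeR adjusted p = 0.0176) was 0.13 without clone C6 (edgeR adjusted p = 0.434) and 0.14 without the low-detection libraries (edgeR adjusted p = 0.413). The SKA1, CKAP5 and KPNA2 differences also lost their calls in at least 1 alternative, and those of CENPW, PTTG1 and BIRC5 did not.

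Against OL9-119, 20 genes were lower in the combination and MIS12 was higher, with 7.72% lower and 5.00% higher among all genes. PIF1 (log2 difference -0.87), CENPP (-0.58), UBE2C (-0.55), CENPA (-0.55), CENPE (-0.54) and HMMR (-0.53) were the lowest. Without clone C6, PIF1 differed by -0.45, CDCA8 by -0.18 in place of -0.33 and KPNA2 by -0.11 in place of -0.18, all still called in edgeR. The calls of ASPM, ECT2, CENPI, MIS12 and NDC80 were lost in at least 1 alternative. A test of whether the combination departs from the sum of the separate log2 changes called KPNA2 alone (0.23 ± 0.05, edgeR adjusted p = 0.0212, 0.0316% of all genes), and this call was lost in 10 alternatives. KPNA2 fell under each compound, by 0.41 with topotecan and 0.35 with OL9-119, and by 0.53 with both, on the log2 scale.

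DMSO itself moved none of these genes past the test. Against untreated cells, edgeR called 0 of the 52, DESeq2 also called 0, and 1 had an unadjusted p under 0.05, while edgeR called 0.0158% of all genes. The median log2 difference was 0.04.

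Before any drug, the clones differed in some of these genes, and such differences were frequent among all genes as well. At the common depth, the DMSO libraries detected 17834 to 21500 genes in C6, 22987 to 23546 in F7 and 18383 to 22247 in G6. Between C6 and F7, a difference of the clones and one of library detection therefore cannot be told apart. In DMSO, C6 was higher than F7 for 13 genes and lower for 13, against 20.4% higher and 19.2% lower among all genes, 39.5% either way. CENPK (log2 difference 1.02), CKAP2 (0.89), SPC24 (0.81), NUSAP1 (0.76) and CENPQ (0.74) were higher in C6, and CENPB (-0.89) was the lowest. C6 was higher than G6 for SKA3 (1.11) and ANLN (0.37) and lower for 7 genes, led by CENPB (-1.21) and DSN1 (-0.80), against 11.6% higher and 12.8% lower among all genes, 24.4% either way. F7 was higher than G6 for SKA3 (0.78), SKA1 (0.39) and KPNA2 (0.22) and lower for 11 genes, led by CENPK (-0.87), NUSAP1 (-0.76) and DLGAP5 (-0.69), against 6.89% higher and 10.2% lower, 17.1% either way. The DMSO mean of CENPB was 55.1 ± 13.6 CPM in C6, against 102.6 ± 8.85 CPM in F7 (SD, n = 4 each), and G6 stood at 128.1 ± 33.7 CPM. In all, 26 of the 52 genes were called between C6 and F7, 9 between C6 and G6 and 14 between F7 and G6. The 9 became 18 without replicate 3 of C6, 15 without replicate 1 of G6 and 14 without the low-detection libraries, and the 14 became 9 without replicate 2 or 3 of F7.

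Within a group, libraries also differed from each other in these genes along a shared direction. With group means removed over the 60 libraries, 37 genes correlated positively with the mean of the other 51 and 15 negatively. The negative ones included CENPB (r = -0.91), INCENP (-0.85), CDC20 (-0.84), CENPM (-0.81) and UBE2C (-0.77), while CENPA had an r of 0.09. The 15 had a median GC content of 54.2% in the longest coding transcript, and the 37 had 40.0%. Across the 52 genes the Spearman correlation of this r with GC content was -0.80. The 37 had a median r of -0.77 with the number of genes a library detected, and the 15 had 0.63. After topotecan, 22 of the 37 and 6 of the 15 fell, against 9.35% of all genes tested. The Spearman correlation of the topotecan change with GC content was 0.16. These correlations are descriptions over shared libraries, and the part of GC content or detection in the treatment changes was not tested beyond leaving out the low-detection libraries.

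**Figure D5:**
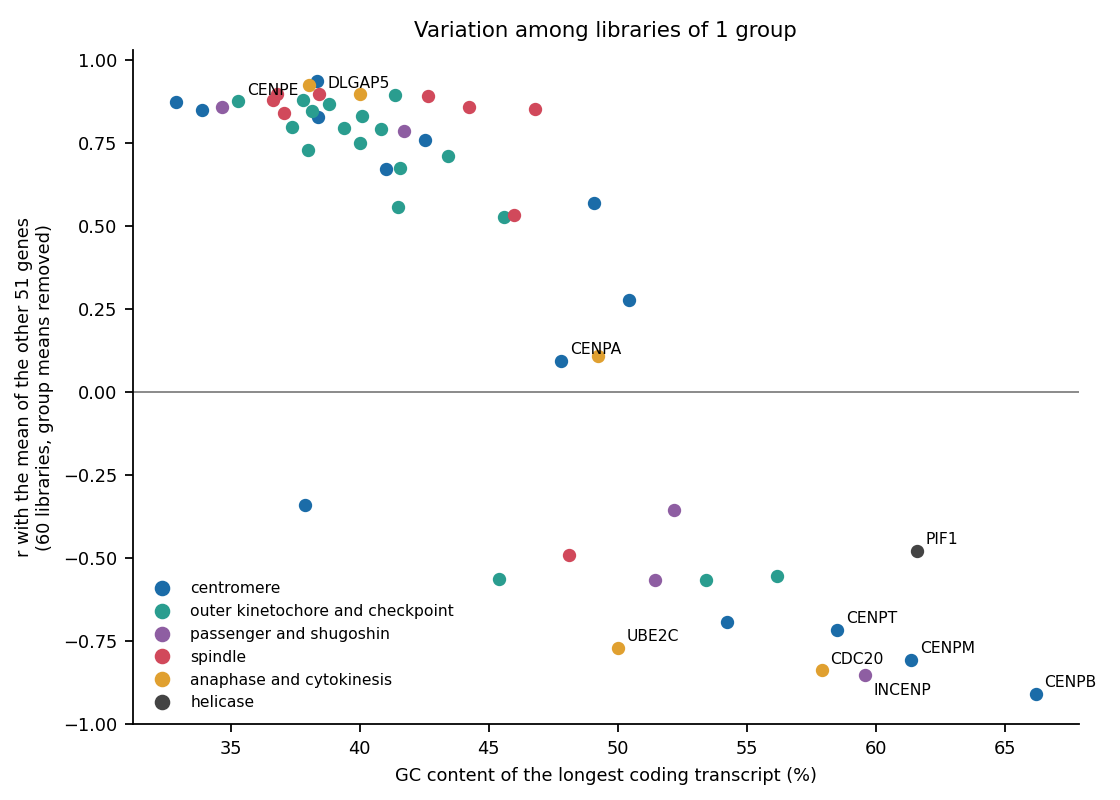
Correlation of each gene with the mean of the other 51 over 60 libraries after removing group means, plotted against the GC content (%) of its longest coding transcript, with colours for roles. Genes of high GC content such as CENPB (r = -0.91) mostly lie below 0 and those of low GC content mostly above it, with CENPA near 0 (r = 0.09). The ranges overlap, since GC content spans 32.9 to 50.4% in genes above 0 and 37.9 to 66.2% in those below.

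Other genes of mitosis and of the wider cell cycle were read beside these, from lists chosen with earlier results of these data known. After topotecan, 15 of 19 mitotic kinases and cyclins fell and 1 rose (median log2 change -0.35), with PLK1 at -0.94, AURKA at -0.85, BUB1B at -0.70 and, in the other direction, the CDK1-inhibiting kinase PKMYT1 at 0.42. Of 12 mitotic kinesins 9 fell (median -0.42), such as KIF14 (-0.79) and KIF20A (-0.66). Of 21 further spindle and cytokinesis genes 10 fell and 1 rose (median -0.19), with CLASP1 at -0.62 and CIT at -0.52. Of 16 further centromere and kinetochore genes 6 fell and 1 rose (median -0.06), with KNSTRN at -0.53 and MAD2L1BP at 0.40. Of 18 subunits of the anaphase-promoting complex and its partners 3 fell (median -0.04), with CDC27 at -0.47. Of 11 cell-cycle transcription factors 2 fell, FOXM1 by 0.22 and RBL2 by 0.20 on the log2 scale. Of 21 S-phase genes 0 fell and 15 rose in edgeR (median 0.25), with ORC1 at 0.49, CDC6 at 0.45, GINS3 at 0.40 and MCM4 at 0.32. All of these are edgeR calls at adjusted p under 0.05, to be read against 9.35% lower and 5.99% higher among all genes.

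After OL9-119, 5.00% of all genes were lower and 4.47% higher. Of the same lists, 4 of 19 mitotic kinases and cyclins fell, 1 of 12 kinesins fell, 3 of 21 further spindle and cytokinesis genes fell and 1 rose, and 4 of 21 S-phase genes fell and 2 rose. Of the anaphase-promoting complex and partners 1 fell and 1 rose, as of the transcription factors. In edgeR 0 of the 16 further centromere and kinetochore genes were called, 1 had an unadjusted p under 0.05, and DESeq2 called 0. The difference from topotecan was not tested over these lists.

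After the combination, 11.7% of all genes were lower and 9.53% higher. Of the lists, 13 of 19 kinases and cyclins fell and 1 rose, 9 of 12 kinesins fell, and 8 of 21 further spindle and cytokinesis genes fell and 3 rose. Of 16 further centromere and kinetochore genes 3 fell and 1 rose, of 18 genes of the anaphase-promoting complex 4 fell and 1 rose, and of 11 transcription factors 2 fell. Of 21 S-phase genes 11 rose and 1 fell.

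Of the 52 genes, 17 share exon bases with another annotated gene, 15 on the other strand and 3 on the same strand. Reads from the shared bases cannot be assigned to 1 gene with certainty. The extent varies: on the other strand NUF2 shares 5 bases with RGS5, while CENPP shares 3719 with IPPK. On the same strand PMF1 shares 587 exon bases with PMF1-BGLAP, which had 0 counts. PRC1, which bundles the central spindle, had 1390 counts over all libraries, while AC068831.7, annotated on the same strand with 3181 shared exon bases, had 9132 counts. PRC1 did not pass the test after topotecan (log2 difference -0.34 ± 0.29, edgeR adjusted p = 0.528), and AC068831.7 fell by 0.58 (edgeR adjusted p = 1.08e-05). CENPA shares 138 exon bases with SLC35F6, which had 23996 counts against 20710 for CENPA. On the other strand, CENPO shares 1488 exon bases with ADCY3, and its log2 difference after topotecan of 0.15 (edgeR adjusted p = 0.0627) carries this doubt, as do, among others, the values of CENPP, CENPN, CENPT, CENPU, SPC24, MIS12 and ZWILCH. Near copies of KPNA2, PTTG1, CDC20, SKA2 and BUB3 are annotated, and none of them held over 213 counts in the 60 libraries together.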

How the data were processed

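RNA was sequenced from 3 TDP1-knockout clones under 5 treatments, 4 libraries each. Per the labels' protocols, Trizol RNA was poly(A)-selected and made into directional MGIEasy libraries. Per the submitters' processing notes, FastQC 0.11.9, STAR 2.7.8, Picard 2.26.6 and hg38 were used. The sources used here do not name the counting tool, its annotation or whether it used strand. The deposited table holds raw counts of reads per Ensembl gene, with no normalization by the authors. Without molecular identifiers, counts are not independent molecules.

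Counts were tested with edgeR 4.0.16 (R 4.3.3, limma 3.58.1): filterByExpr on the 15 groups (18985 genes kept), TMM normalization, 1 mean per group over all 60 libraries, and a quasi-likelihood test of each contrast averaged over the 3 clones, with Benjamini-Hochberg adjustment over all genes at a threshold of 0.05. CPM used TMM library sizes, and log2 CPM a prior count of 2. Clone dependence was an F test over the clones. The procedure was tested on simulated data with 200 changed genes. These counts were drawn independently with a fixed spread, so the test does not cover the variation that real libraries of a group share. Gene positions and exons came from GENCODE release 29 on hg38 (58275 of 58395 IDs), and promoter windows from RefSeq on GRCh38.p14, taking the first window of the 6 genes with several. No 2 libraries of a group agreed within sampling noise (chi-square per degree of freedom 2.31 to 58.88 over 90 pairs).

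The 52 genes and all lists were chosen with earlier results of these data known. Any of the 52 could be named. Values in every group's libraries were read for CENPA, CENPB, PIF1 and the members with the lowest and highest topotecan and OL9-119 change of each role, and from the other lists at most 4 called genes each. Alternatives were DESeq2 1.42.0, its size factors, no low-count filter, only the groups compared, each replicate, clone C6 or the low-detection libraries left out, a replicate block and a shorter promoter window.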

Additional observations from a re-analysis of the deposited data

Results flagged for a closer look

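Within groups of 4 libraries, a library standing apart from the other 3 (Dixon's test at the 95% level) was found in 12 of 315 groups of named genes, and chance gives about 1 in 20. In clone C6, DSN1 in untreated replicate 2 had 50.8 CPM (others 37.4 to 39.5) and in DMSO replicate 1 had 48.2 CPM (others 44 to 44.5), DLGAP5 in DMSO replicate 3 had 123.02 CPM (others 180.2 to 192), and ECT2 in topotecan replicate 4 had 172 CPM (others 118 to 124.5). In clone F7, CENPP in DMSO replicate 2 had 37.5 CPM (others 34.2 to 34.5), CENPE in combination replicate 3 had 124.2 CPM (others 147 to 150.05), ASPM in OL9-119 replicate 1 had 138 CPM (others 188 to 196), and KPNA2 in untreated replicate 3 had 627 CPM (others 593 to 596). In clone G6, CENPA in OL9-119 replicate 4 had 26.4 CPM (others 31.4 to 32.1), SKA1 in DMSO replicate 4 had 29.2 CPM (others 38 to 39), CKAP5 in DMSO replicate 4 had 970.6 CPM (others 1195 to 1224), and PTTG1 in topotecan replicate 4 had 159 CPM (others 142 to 144).

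The treatment change differed between clones, by an F test over the clones in edgeR, for CENPA after topotecan (adjusted p = 0.000115) and after the combination (adjusted p = 0.0265). It also did for KPNA2 after topotecan (adjusted p = 0.00114 in edgeR) and after the combination (adjusted p = 4.87e-05 in edgeR). For both genes the change was nearest to 0 in F7.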

How the results depend on the processing

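Of 107 printed changes of single genes, 97 were called, and 1843 alternative values of these gave 131 in the same direction but past the threshold no longer; 23 of 29 topotecan, 5 of 11 OL9-119 and 27 of 28 combination calls held throughout. Signs turned for CKAP5 after OL9-119 (0.01 and not called), which ranged over -0.0048 to 0.0272 with 1 replicate number of 1 clone left out (below 0 without C6 replicate 1 or 4 or G6 replicate 1 or 4) and was -0.0214 without the low-detection libraries.

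Leaving out 1 replicate number of 1 clone gave 24 to 29 lower and 0 to 2 higher genes for topotecan, 8 to 13 and 1 to 2 for OL9-119, and 25 to 26 and 2 to 3 for the combination. It gave 3 to 5 lower and 0 to 4 higher for the combination against topotecan, 16 to 21 and 0 to 2 against OL9-119, 0 to 0 for DMSO against untreated and 0 to 1 for the departure from the sum. Within C6, F7 and G6 it gave 17 to 24, 0 to 6 and 15 to 23 for topotecan, 2 to 3, 0 to 0 and 2 to 4 for OL9-119, and 18 to 24, 3 to 8 and 17 to 25 for the combination. Between clones it gave 22 to 31 for C6 against F7, 8 to 18 for C6 against G6 and 9 to 21 for F7 against G6. Clone dependence ranged over 2 to 3 for topotecan, 0 to 0 for OL9-119 and 1 to 2 for the combination.

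Other settings moved these counts. Without the low-detection libraries, OL9-119 gave 17 lower genes, topotecan 4 higher, the combination 4 higher, the combination against topotecan 1 higher, and C6 against G6 14. The same setting gave 10 in F7 for topotecan, 8 in C6 and 3 in F7 for OL9-119, 19 in F7 for the combination and 4 for clone dependence of topotecan. With no count filter, higher genes were 0 for OL9-119, 0 for topotecan, 1 for the combination against topotecan and 2 for the departure from the sum, with 4 for OL9-119 in C6 and 4 for clone dependence of topotecan. Without clone C6 they were 1 for OL9-119, 1 against topotecan, 0 against OL9-119 and 0 for the departure from the sum, with 1 in F7 and 6 in G6 for OL9-119. DESeq2 gave 2 higher for topotecan, 5 against topotecan and 2 against OL9-119, and 2 in F7 for OL9-119, and its size factors gave 5 and 2. With only the groups compared, 1 was higher for OL9-119 and 0 for the combination against it. In the 100 bases before the start, 12 promoters held a CHR, 6 an E2F match and 10 both CHR and CCAAT. The causes were not tested.

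Same-numbered libraries deviated together in part of the series. Every pair had a correlation over 0.1 in 3 of the 12 sets of clone and number, namely C6 replicate 3 (lowest 0.167), G6 replicate 1 (lowest 0.124) and G6 replicate 4 (lowest 0.2099), and in the other 9 it was as low as -0.287. Of the 60 libraries 35 correlated best with their own number, where each had 4 numbers to match. Library names begin with L01, L02 or L03. All treatments of 1 clone and replicate number share this prefix, and its meaning is not stated in the labels. The prefixes are spread unevenly over the clones, and their part in differences between clones was not tested. The labels do not state a pairing, so the fit without blocks was kept. It leaves the variation that same-numbered libraries share out of account. A replicate block gave 31 topotecan calls (29 of them shared) with 2 higher, 14 for OL9-119, 30 for the combination, 13 for the combination against topotecan with 7 higher, and 25 against OL9-119 with 2 higher. With the block, topotecan gave 8 in F7, OL9-119 gave 10 in C6, 1 in F7 and 9 in G6, the combination gave 12 in F7, and clone dependence of topotecan gave 4. The block could not be fitted between clones, since each block lies within 1 clone, and clone dependence was not run in DESeq2. PIF1 and PRC1 are limited by few counts per library. The count of PRC1 may also depend on how reads from exons shared with AC068831.7 were assigned.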
